A study of Rattus norvegicus with 12 samples.

Results

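Postnatal maturation of control rat islets was followed from 2 to 10 weeks of age in 6 of the 12 libraries of the series. The members are the 3 libraries of 10-week-old and the 3 of 2-week-old control Sprague Dawley rats, chosen by their labels, and no measured value entered the choice. Each gene symbol was represented by the transcript with the highest mean count over all 12 libraries. The count table held 25888 symbols, and 17360 of them had counts high enough to be tested. Control offspring and their dams ate standard chow freely, and control litters were reduced to 8 pups. The other 6 libraries came from IUGR (intrauterine growth-restricted) offspring of the same strain and ages, with 3 libraries per age, whose dams had both uterine arteries tied at embryonic day 18. Islets were isolated by collagenase digestion through the duct and a Histopaque gradient, and total RNA (integrity number over 7) was freed of ribosomal RNA before sequencing. The replicates are described as biological. The sex of the animals, the number of animals behind a library and any sham surgery of the controls were not given in the sources used here.

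Islets of Langerhans are endocrine clusters in which beta cells release insulin, alpha cells glucagon, delta cells somatostatin and PP cells pancreatic polypeptide. Beta cells of suckling rodents divide often and release insulin already at low glucose. Around weaning, which falls between the ages compared and brings a change from fat-rich milk to carbohydrate-rich chow, they divide less and acquire the transporters, enzymes, channels and granules that couple glucose to insulin release. The contrast of 10 with 2 weeks in the controls asks which transcripts take part in this change.

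Total counts per library were between 44405196 and 45337170 at 2 weeks and between 39615285 and 64201627 at 10 weeks. Transcripts of the exocrine pancreas made up much of them: 36 acinar cell genes, whose products are digestive enzymes and their regulators, held 42.2, 22.6 and 21.7% of the counts at 2 weeks and 43.0, 13.9 and 46.9% at 10 weeks. These shares overlapped between the ages. The 10-week replicate 2 stood apart by lymphoid transcripts, with 935 counts per 1000000 on a list of 14 B and plasma cell genes against 21.8 to 34.2 at 2 weeks and 24.9 to 31.6 in the other two 10-week libraries. The Y-linked transcript Eif2s3y was detected in all 12 libraries. Levels of genes are given as counts per 1000000 (CPM) on library sizes scaled by the trimmed mean of M-values (TMM). The factors were 0.771, 1.148 and 1.148 at 2 weeks and 0.492, 1.074 and 0.440 at 10 weeks. A low factor raises every CPM of its library, and statements on overlap of gene levels rest on this scaling. Sums over a list are given per 1000000 of all counts, without the scaling. In bulk RNA, fewer cells of a type and less RNA per cell cannot be told apart.

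A large part of the transcriptome differed between the ages. By edgeR's quasi-likelihood test with Benjamini-Hochberg adjustment, 5601 of 17360 symbols (32.3%) passed an adjusted p of 0.05, 2995 of them higher (17.3%) and 2606 lower (15.0%) at 10 weeks. A log2 fold change of at least 1 in size, that is 2-fold or more, was reached by 951 of the higher and 1079 of the lower symbols, and one of at least 3 by 107 and 51. Fitted alone, without the IUGR libraries, the 6 control libraries gave 1551 higher and 1311 lower symbols. The IUGR libraries fitted alone gave 10532 calls, against 9764 in the fit of all libraries. The spread shared by all libraries may thus be too small for the controls, and their adjusted p too low. Regardless of the test, 20.4% of symbols had all 10-week libraries above all 2-week libraries and 20.3% had them below. These shares are the background of the list counts and of the statements on overlap given below. They were 17.3% higher and 15.0% lower for calls, and 20.4% and 20.3% for ages without overlap.

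Among symbols with a mean log2 CPM of at least 1 over the control libraries, the called falls without overlap between the ages were ranked by size. Agtr2, the angiotensin II type 2 receptor, stood at 17.8, 22.7 and 19.6 CPM at 2 weeks and 0.127, 0.259 and 0.329 CPM at 10 weeks, a log2 fold change of -6.39 ± 0.32 (SE, edgeR adjusted p = 5.65e-06). All 2-week libraries lay far above all 10-week libraries. Gif, gastric intrinsic factor, which binds vitamin B12, went from 41.2, 15.7 and 9.73 to 0.158, 0.118 and 0.219 CPM (-7.10 ± 0.86). Its level differed several-fold among the 2-week libraries, with replicate 1 the highest, and the fold change without that library was -6.29. Alox15, a lipoxygenase, went from 22.9, 37.04 and 32.3 to 1.65, 0.846 and 2.81 CPM (-4.16 ± 0.35). The other genes among the 12 widest falls of symbols that are no locus or clone name were Mir675, Vsig1, Car3, Tdh, Adipoq, Dlk1, Cldn1, Tex15 and Gnat3. Below these 12 came Nrk, a kinase known from placenta and embryo, from 11.5, 12.5 and 9.71 to 0.919, 1.65 and 1.46 CPM (-3.06 ± 0.26).

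Among the 12 widest rises, 4 were immunoglobulin transcripts (Ighg, IGG-2A, IGH-1A and Igkc) that were highest in the 10-week replicate 2, the library with the lymphoid transcripts. Igkc, the kappa light chain, stood at 4.04, 6.63 and 1.69 CPM at 2 weeks and at 23.4, 404 and 24.4 CPM at 10 weeks. Ighg had no read in any 2-week library and 8.14, 340.3 and 0.256 CPM at 10 weeks, so no fold is given. Without the 10-week replicate 2 the log2 fold change of Igkc was 2.54 in place of 5.19. Among genes also called higher with age in the IUGR libraries, the widest rise outside the immunoglobulins was that of Trpa1, a cation channel of irritant sensing. Trpa1 stood at 0.2003, 0.4302 and 0.5296 CPM at 2 weeks and 12.8, 8.65 and 7.96 CPM at 10 weeks, a log2 fold change of 4.60 ± 0.34 (edgeR adjusted p = 4.61e-05). Tmem35, a chaperone of nicotinic receptors, rose from 1.603, 2.44 and 3.02 to 42.6, 22.2 and 28.5 CPM (3.70 ± 0.32). Both genes were low in every 2-week library. Absence of overlap between the ages was a condition of the ranking of rises, as of falls, and is no separate result.

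Of 8 islet hormones, 3 rose and 3 fell, and 1 fell without replicate 3 of either age. Ins2, 1 of the rat's 2 insulin genes, stood at 8601, 9455 and 14698 CPM at 2 weeks and 52330, 38419 and 35109 CPM at 10 weeks, a log2 fold change of 1.94 ± 0.36 (edgeR adjusted p = 0.0027). Ins1, the other insulin gene, stood at 11723, 13193 and 20893 CPM at 2 weeks and 75730, 52442 and 49461 CPM at 10 weeks (1.96 ± 0.39), a call that was lost in the fit of the 6 control libraries alone (edgeR adjusted p = 0.054). Iapp, islet amyloid polypeptide, which is secreted with insulin, stood at 1272, 1214 and 2359 CPM at 2 weeks and 11789, 7416 and 8196 CPM at 10 weeks (2.50 ± 0.32). For all 3 the lowest 10-week library was above the highest 2-week library in scaled CPM. As an unscaled share of all counts, Ins1 and Ins2 together overlapped, with 1.57 to 4.09% at 2 weeks and 3.72 to 9.76% at 10 weeks. Of the counts outside the acinar list they held 2.71 to 5.22% and 7.01 to 11.3%, without overlap. Ins1 and Ins2 kept 1 proportion: the ratio of their counts was 1.39 ± 0.03 (SD, n = 3) at 2 weeks and 1.41 ± 0.04 at 10 weeks. The ratio of Iapp to Ins2 counts was 0.146 ± 0.016 at 2 weeks and 0.217 ± 0.021 at 10 weeks, and did not overlap between the ages.

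The hormones that fell belong to other islet cells. Gcg, which encodes glucagon, stood at 11999, 11356 and 25221 CPM at 2 weeks and 4919.7, 8648 and 5891 CPM at 10 weeks, a log2 fold change of -1.32 ± 0.46 (edgeR adjusted p = 0.049), close to the threshold. The ages did not overlap, but the call was lost under 9 of the 12 fits that leave out a library, the control fits without the 2-week replicates 2 or 3 and the 10-week replicates 1 or 3 among them, and in the fit of the 6 control libraries alone. Ghrl, ghrelin, stood at 13.5, 12.9 and 15.2 CPM at 2 weeks and 5.32, 5.24 and 4.24 CPM at 10 weeks (-1.49 ± 0.21, edgeR adjusted p = 0.00058), and Pyy, peptide YY, at 87.5, 77.8 and 106 CPM at 2 weeks and 46.5, 47.3 and 42.9 CPM at 10 weeks (-0.99 ± 0.27). Ghrl did not overlap between the ages and its libraries were close together within each. The Pyy call was lost without replicate 3 of either age and without the 10-week replicates 1 and 3 together. Sst, somatostatin, was not called, with 138, 196 and 258 CPM at 2 weeks and 264, 345 and 275 CPM at 10 weeks. Counts of Gcg relative to Ins2 were 1.40, 1.20 and 1.72 at 2 weeks and 0.0940, 0.225 and 0.168 at 10 weeks. Gcg reads outnumbered those of Ins2 in every 2-week library and in no 10-week library, as counts that are not scaled for transcript length.

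**Figure D1:**
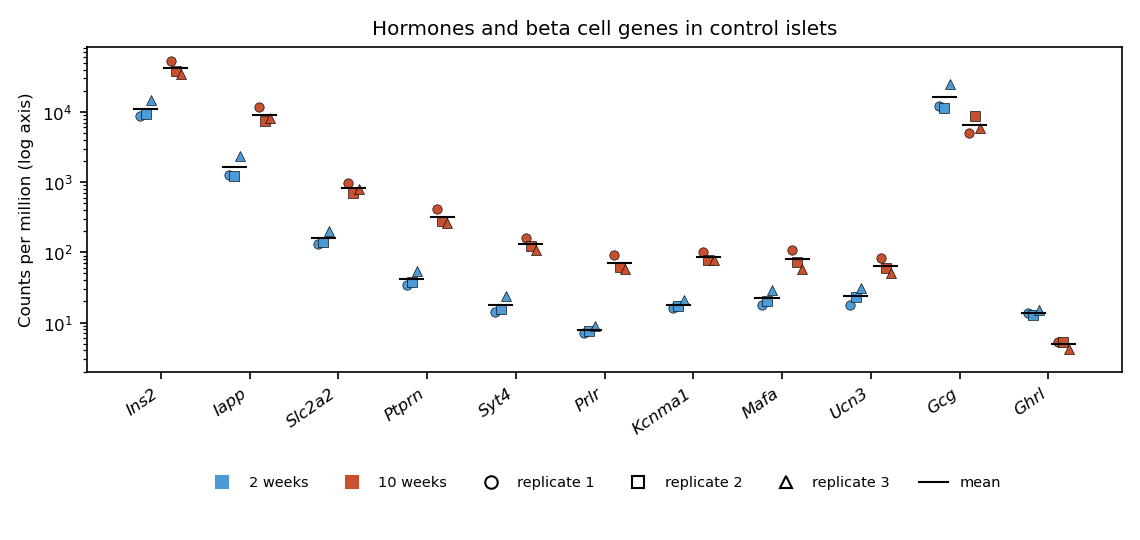
CPM (log axis) of hormones and beta cell genes in the 3 control libraries of 2 weeks (blue) and the 3 of 10 weeks (red), with a marker shape per replicate number and a line at the mean. All genes from Ins2 to Ucn3 lie higher at 10 weeks with no overlap, and Gcg and Ghrl lie lower.

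Genes that mark adult beta cells rose. Of 14 tested, 11 were called higher (78.6%, against 17.3% of all symbols) and 1 lower, with a median log2 fold change of 1.38 against -0.002 over all symbols. Prlr, the prolactin receptor, through which lactogens act on beta cells, stood at 7.097, 7.53 and 8.94 CPM at 2 weeks and 92.7, 61.9 and 58.1 CPM at 10 weeks, a log2 fold change of 3.17 ± 0.18 (edgeR adjusted p = 9.72e-06). Slc2a2, the GLUT2 glucose transporter of rodent beta cells, stood at 131, 142 and 203 CPM at 2 weeks and 971, 693 and 806 CPM at 10 weeks (2.37 ± 0.22, edgeR adjusted p = 9.39e-05). Both genes were several-fold higher in every 10-week library than in any 2-week library. Ucn3, urocortin 3, a peptide that appears late in beta cell maturation, went from 17.9, 22.96 and 31.3 to 82.99, 58.98 and 50.7 CPM (1.42 ± 0.22). Slc30a8, the zinc transporter of insulin granules, went from 133, 140.5 and 218 to 429, 352 and 293 CPM (1.13 ± 0.20). The member that fell was Nnat, neuronatin, an imprinted gene, from 43.1, 70.7 and 67.9 to 19.96, 20.01 and 18.8 CPM (-1.63 ± 0.17).

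Of 22 transcription factors of the beta cell, 7 rose (31.8%, against 17.3% of all symbols) and 4 fell (18.2%, near the 15.0% over all symbols). Without the 2-week replicate 2, and also in the fit of the 6 control libraries alone, these were 4 and 2, without the 10-week replicate 1 they were 4 and 1, and without the 10-week replicate 3 the number that fell was 2. Mafa, which activates the insulin gene in mature beta cells, stood at 17.8, 20.4 and 28.8 CPM at 2 weeks and 109, 72.7 and 57.4 CPM at 10 weeks, a log2 fold change of 1.83 ± 0.24 (edgeR adjusted p = 0.00042). Nkx6-1, which holds beta cell identity, went from 11.6, 18.6 and 26.1 to 79.7, 68.3 and 59.5 CPM (1.88 ± 0.28), Neurod1 from 24.1, 27.7 and 41.5 to 68.5, 51.9 and 48.6 CPM (0.86 ± 0.20), and St18 from 43.2, 55.4 and 79.9 to 153, 133 and 111 CPM (1.15 ± 0.19). The Neurod1 call was lost without the 10-week replicates 1 and 3 together. None of these 4 overlapped between the ages.

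The secretory granule and its release machinery rose with the hormone genes. Of 16 genes of granules and prohormone processing, 12 were higher (75.0%, against 17.3% of all symbols), with a median log2 fold change of 1.04. Of 27 exocytosis genes, 15 were higher (55.6%) and 2 lower (7.41%, against 15.0% of all symbols), with a median of 0.72. Ptprn, the granule membrane protein IA-2, stood at 33.8, 37.5 and 54.96 CPM at 2 weeks and 409, 283 and 259 CPM at 10 weeks, a log2 fold change of 2.91 ± 0.24 (edgeR adjusted p = 7.57e-05). Cpe, the carboxypeptidase that trims prohormones, went from 376, 398 and 679 to 1953, 1469.8 and 1419.5 CPM (1.74 ± 0.24), and Pam, which amidates peptides, from 309, 367 and 499 to 1122, 857 and 856 CPM (1.27 ± 0.19). In the exocytosis list Syt4, a synaptotagmin, stood at 14.3, 15.5 and 23.5 CPM at 2 weeks and 159.9, 122 and 108 CPM at 10 weeks (2.87 ± 0.23). Snap25, a SNARE protein of the plasma membrane, went from 14.1, 18.2 and 22.8 to 75.2, 62.1 and 59.99 CPM (1.84 ± 0.17), and the priming factor gene Unc13a from 15.9, 13.8 and 19.5 to 48.5, 41.6 and 37.1 CPM (1.37 ± 0.15). The ages did not overlap for any of these 6 genes.

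Of 25 ion channel genes of secretion, 11 were higher (44.0%). This count was 6 without the 2-week replicate 1, 4 without the 2-week replicate 2, 4 without the 10-week replicate 1 and 7 without the 10-week replicate 2. The rise of Kcnma1, the large-conductance calcium-activated potassium channel, was the clearest in the list by p, from 15.9, 17.1 and 20.99 to 102, 77.6 and 77.5 CPM (2.25 ± 0.14, edgeR adjusted p = 1.02e-05). Trpm5, a cation channel opened by calcium, went from 9.501, 6.61 and 11.2 to 48.4, 25.8 and 27.1 CPM (1.89 ± 0.29). Of 24 receptors, 8 rose (33.3%) and 3 fell (12.5%, below the 15.0% over all symbols). Glp1r, the receptor of the incretin GLP-1, stood at 20.8, 29.8 and 35.9 CPM at 2 weeks and 93.95, 66.8 and 73.3 CPM at 10 weeks (1.43 ± 0.18). Adra2a, the alpha-2A adrenergic receptor that inhibits insulin release, went from 5.84, 7.96 and 9.36 to 47.1, 38.02 and 33.6 CPM (2.35 ± 0.21), and Vipr2, a receptor for VIP and PACAP, from 3.98, 4.15 and 5.65 to 19.3, 16.8 and 14.2 CPM (1.86 ± 0.15). Receptors that raise and receptors that lower secretion were thus both among those that rose.

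Of 42 genes of glucose metabolism and the NADH shuttles, 19 rose and 1 fell (median log2 fold change 0.32), and 12 rose in the fit of the 6 control libraries alone. Mdh1, the cytosolic malate dehydrogenase of the malate-aspartate shuttle, stood at 99.7, 85.4 and 118 CPM at 2 weeks and 444, 318 and 329 CPM at 10 weeks, a log2 fold change of 1.85 ± 0.16 (edgeR adjusted p = 8.18e-05). Pc, pyruvate carboxylase, which refills the citric acid cycle, went from 25.5, 22.4 and 28.8 to 58.5, 61.9 and 63.5 CPM (1.26 ± 0.11), and Me1, the cytosolic malic enzyme, from 17.3, 14.96 and 20.8 to 48.9, 46.8 and 41.3 CPM (1.37 ± 0.18). The ages did not overlap for these 3 genes. Among 13 transcripts of the mitochondrial genome, 7 rose (median 0.60). Mt-co2, a subunit of cytochrome c oxidase, went from 622, 646 and 648 to 1323, 1064 and 1022 CPM (0.83 ± 0.13). Of 74 subunits of the respiratory chain encoded in the nucleus, 9 rose and 1 fell, below the shares over all symbols. That count of rises was 17 without the 2-week replicate 1, 18 without the 10-week replicate 2, and 3 without either the 2-week replicate 2 or the 10-week replicate 1.

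Of 30 genes of fatty acid and sterol synthesis, 9 rose (30.0%), and 5 did so in the fit of the 6 control libraries alone. Of 30 genes of fatty acid oxidation and ketone bodies, 9 fell (30.0%, against 15.0% of all symbols) and 5 rose (16.7%, near the 17.3% over all symbols). Cpt1a, which admits long-chain fatty acids to mitochondria, fell from 47.5, 59.8 and 52.96 to 28.1, 30.7 and 38.6 CPM (-0.72 ± 0.12, edgeR adjusted p = 0.0018). Hadh, a beta-oxidation enzyme that in beta cells also restrains insulin release, rose from 154, 154 and 218 to 448, 372 and 341 CPM (1.14 ± 0.15). Both genes separated the ages. The count of falls in this list was 4 or 5 when any of 9 libraries was left out, and 3 in the fit of the 6 control libraries alone.

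Genes of protein folding in the endoplasmic reticulum rose. Of 29, 17 were higher (median log2 fold change 0.66). Dnajb9, a chaperone partner of BiP, stood at 40.8, 34.7 and 43.9 CPM at 2 weeks and 141, 109 and 109 CPM at 10 weeks, a log2 fold change of 1.59 ± 0.15 (edgeR adjusted p = 0.00011), and Hyou1, an ER chaperone, went from 305, 205 and 265 to 848, 603 and 579 CPM (1.39 ± 0.19). Wfs1, the gene of Wolfram syndrome, went from 14.3, 14.4 and 16.2 to 36.2, 27.2 and 26.03 CPM (0.99 ± 0.13). The ages did not overlap for these genes. That count was 11 in the fit of the 6 control libraries alone and 9, with 1 lower, without the 10-week replicates 1 and 3 together. Acinar cells are rich in the same machinery. With acinar level as covariate, 17 of the 29 were higher, and the part of acinar cells in these levels was not tested further.

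Genes of newborn beta cells and genes that mature beta cells keep low fell. Of 14 newborn genes, 8 were lower (57.1% against 15.0% of all symbols, median log2 fold change -0.98), and 5 in the fit of the 6 control libraries alone. Of 22 genes that adult beta cells are known to disallow, 10 were lower and 1 higher, and 6 were lower without the 2-week replicate 2 or in the fit of the 6 control libraries alone. Without the 10-week replicates 1 and 3 together, 4 genes of either list were lower. Dnmt3a, a de novo DNA methyltransferase that is known to silence such genes and is itself on the list, fell from 49.97, 54.2 and 49.7 to 30.04, 33.97 and 25.5 CPM (-0.78 ± 0.11, edgeR adjusted p = 0.00062). Rest, a repressor of neuronal genes, fell from 23.1, 21.999 and 19.5 to 9.51, 14.5 and 12.998 CPM (-0.80 ± 0.16), a call that was lost without the 10-week replicates 1 and 3 together. Slc16a1, the lactate and pyruvate carrier MCT1, fell from 17.5, 13.9 and 16.5 to 5.58, 9.17 and 13.1 CPM (-0.78 ± 0.25), a call that was lost without the 2-week replicate 1 or 3 and in the fit of the 6 control libraries alone. These genes are broadly expressed outside beta cells, and fibroblast markers fell over the same interval. The part of other cell types in these falls was not tested. On a neuron list, 6 of 12 genes rose in the controls, against 17.3% of all symbols. Among them was the neurofilament gene Nefm, from 1.69, 1.86 and 1.53 to 6.08, 5.95 and 4.56 CPM (1.71 ± 0.16). In IUGR islets Rest fell further (log2 fold change -1.92), while 4 of the 12 neuron genes rose and 6 fell (median -1.13). A link between Rest and the neuron list was not tested.

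**Figure D2:**
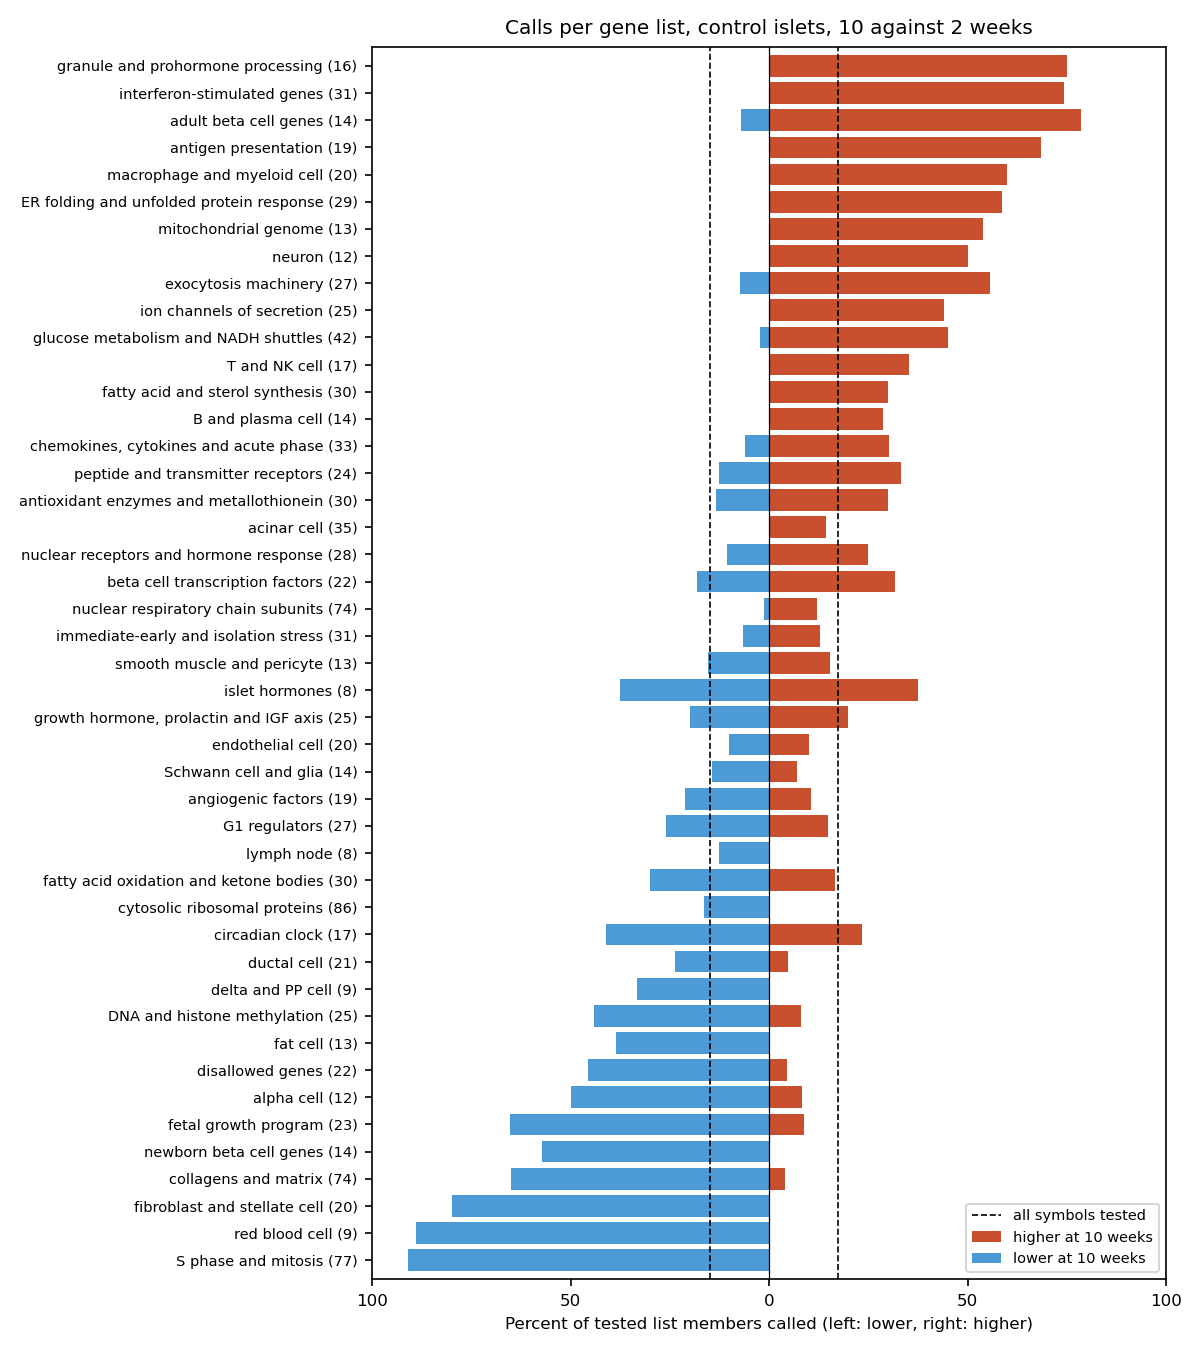
Percent of the tested members of 45 gene lists called higher (right, red) or lower (left, blue) at 10 weeks in control islets, with the number tested in brackets and the shares over all 17360 symbols as dashed lines at 17.3% and 15.0%. Granule, interferon and adult beta cell lists stand at the top and the S phase and mitosis list at the bottom.

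Cell division genes fell almost throughout. Of 77 tested genes of S phase and mitosis, 70 were lower (90.9%), with a median log2 fold change of -1.38, and 68 of the 77 were called lower with age in the IUGR libraries too. Mki67, the proliferation antigen Ki-67, stood at 384, 304 and 293 CPM at 2 weeks and 68.1, 162 and 59.3 CPM at 10 weeks, a log2 fold change of -1.76 ± 0.31 (edgeR adjusted p = 0.0021). Top2a, topoisomerase II alpha, went from 77.01, 67.03 and 75.4 to 19.8, 43.3 and 17.1 CPM (-1.45 ± 0.28). In both genes the 10-week replicate 2, which carried the lymphoid transcripts, was more than 2 times the other 10-week libraries, and still below all 2-week libraries. Prc1, which bundles the microtubules of the central spindle, went from 26.5, 30.7 and 33.4 to 8.02, 11.6 and 7.63 CPM (-1.73 ± 0.16, edgeR adjusted p = 0.00010), and Melk, a mitotic kinase, from 11.8, 8.58 and 7.55 to 1.62, 2.37 and 1.39 CPM (-2.35 ± 0.25). Without the 10-week replicate 2, 75 of the 77 were lower, and over all libraries left out in turn the count was between 64 and 75. The log2 fold change of Mki67 without that library was -2.36. In the lists described here with no call in 1 direction, edgeR at an unadjusted p of 0.05 and DESeq2 gave none in that direction either, except for the ion channels (2 and 1 lower) and fatty acid and sterol synthesis (2 and 0 lower).

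Among 27 regulators of the G1 phase, 7 fell (25.9%) and 4 rose (14.8%, below the 17.3% over all symbols). Cdk2, the kinase of S phase entry, fell from 14.8, 13.4 and 12.02 to 4.15, 5.901 and 5.77 CPM (-1.34 ± 0.15). The inhibitors of cyclin-dependent kinases went opposite ways. Cdkn1c, the imprinted p57, stood at 5.58, 8.41 and 8.101 CPM at 2 weeks and 0.729, 1.25 and 1.24 CPM at 10 weeks, a log2 fold change of -2.78 ± 0.25 (edgeR adjusted p = 9.39e-05). Cdkn2b, p15, stood at 0.744, 0.841 and 1.31 CPM at 2 weeks and 2.28, 2.49 and 2.15 CPM at 10 weeks (1.25 ± 0.23, edgeR adjusted p = 0.0026). Neither gene overlapped between the ages. Cdkn2a, p16, had too few counts to be tested. Ezh2, a histone methyltransferase of dividing cells, fell from 17.7, 16.6 and 15.8 to 7.03, 13.6 and 6.499 CPM (-0.88 ± 0.22), a call that was lost in the fit of the 6 control libraries alone and without the 10-week replicates 1 and 3 together. The count of falls on the G1 list was 4 without the 2-week replicate 1 or 2 or the 10-week replicate 1 or 3, and the count of rises was 2 without the 10-week replicate 1. In the fit of the 6 control libraries alone, 2 fell and 2 rose.

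Since members of the division list moved together, their promoters were read for the letters of known cell cycle elements on both strands: TTTGAA, the core of the cell cycle homology region, CCAAT, the NF-Y box, and GCGGGAA, an E2F-like element. RefSeq promoters of build GRCr8 (250 bases before to 50 after the start) were matched by symbol for 62 of the 77 genes. TTTGAA was found in 30 of the 62 (48.4%), against 18.1% of all 27457 promoters and 12.1% of the 11111 promoters of tested symbols. CCAAT was found in 44 (71.0%, against 37.7 and 37.0%), and at least 2 copies in 29 (46.8%, against 11.5 and 12.9%). GCGGGAA was found in 9 (14.5%, against 4.47 and 7.81%). Melk, among the most reduced members, held neither TTTGAA nor CCAAT in this window, which says nothing of the factors that bind there. The promoters of 3 members are shown because each holds TTTGAA before the start together with 2 or more CCAAT boxes; capitals mark both motifs on either strand.
Prc1, chr1:143659231-143659530, + strand: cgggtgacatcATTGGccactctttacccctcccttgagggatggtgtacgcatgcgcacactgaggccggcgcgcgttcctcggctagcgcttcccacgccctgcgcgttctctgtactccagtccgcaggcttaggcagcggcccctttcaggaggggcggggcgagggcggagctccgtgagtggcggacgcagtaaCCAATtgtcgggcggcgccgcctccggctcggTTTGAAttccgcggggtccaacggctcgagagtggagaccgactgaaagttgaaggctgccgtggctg
Mki67, chr1:199952544-199952843, - strand: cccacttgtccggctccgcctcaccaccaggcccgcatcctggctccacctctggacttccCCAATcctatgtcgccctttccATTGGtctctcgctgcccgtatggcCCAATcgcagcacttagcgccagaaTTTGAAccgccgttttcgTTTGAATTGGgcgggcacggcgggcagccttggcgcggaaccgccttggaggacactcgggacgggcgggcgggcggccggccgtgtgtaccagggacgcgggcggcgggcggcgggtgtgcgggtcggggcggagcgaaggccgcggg
Top2a, chr10:84473044-84473343, - strand: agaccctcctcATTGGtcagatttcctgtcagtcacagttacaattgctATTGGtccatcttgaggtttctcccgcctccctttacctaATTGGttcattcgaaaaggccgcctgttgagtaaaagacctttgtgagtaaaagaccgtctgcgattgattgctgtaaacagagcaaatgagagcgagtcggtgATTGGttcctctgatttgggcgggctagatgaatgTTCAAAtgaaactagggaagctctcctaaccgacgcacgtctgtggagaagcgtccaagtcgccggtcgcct
In Prc1 the TTTGAA begins 18 bases and in Top2a 22 bases before the start. In Mki67 copies begin 117 and 99 bases before it, and the latter overlaps a CCAAT box read on the other strand.

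**Figure D3:**
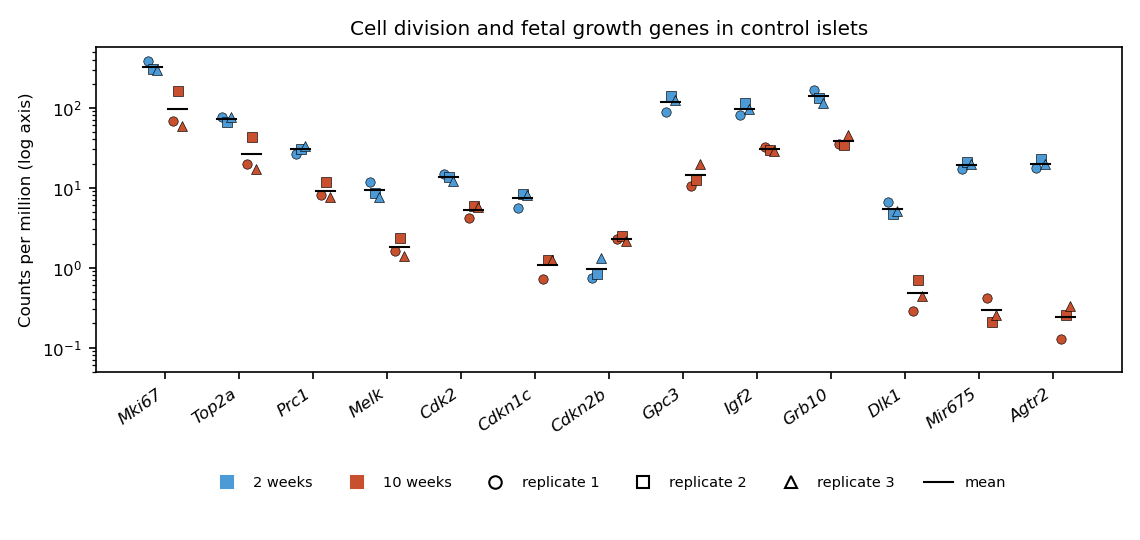
CPM (log axis) of cell division and fetal growth genes in the 3 control libraries of 2 weeks (blue) and the 3 of 10 weeks (red), with a marker shape per replicate number and a line at the mean. All genes but Cdkn2b lie lower at 10 weeks, and the 10-week replicate 2 is the highest of its age for Mki67, Top2a, Prc1 and Melk.

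Genes of the fetal growth program, many of them imprinted, also fell. Of 23 tested, 15 were lower (65.2%) and 2 higher, with a median log2 fold change of -1.08, and all 15 were called lower in the IUGR libraries as well. Gpc3, a glypican that limits growth, stood at 88.8, 141 and 124 CPM at 2 weeks and 10.4, 12.6 and 19.8 CPM at 10 weeks, a log2 fold change of -3.05 ± 0.24 (edgeR adjusted p = 7.57e-05). Igf2, the fetal insulin-like growth factor, stood at 81.8, 115 and 95.7 CPM at 2 weeks and 32.2, 29.8 and 28.8 CPM at 10 weeks (-1.69 ± 0.15, edgeR adjusted p = 9.08e-05), and Grb10, an imprinted adaptor that dampens insulin and IGF signalling, at 168, 132 and 114 CPM at 2 weeks and 35.5, 34.2 and 45.2 CPM at 10 weeks (-1.85 ± 0.17). None of these overlapped between the ages. Dlk1, an imprinted Notch ligand relative, fell from 6.52, 4.67 and 5.06 to 0.285, 0.705 and 0.438 CPM (-3.46 ± 0.41), and Igf2bp3, an oncofetal RNA-binding protein, from 2.83, 1.56 and 1.47 to 0.158, 0.306 and 0.292 CPM (-2.92 ± 0.41). Gpc3 is expressed by fibroblasts too and stands on the fibroblast list.

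The third widest fall by the same rule was that of the deposited transcript named Mir675, at 17.3, 20.6 and 19.7 CPM at 2 weeks and 0.412, 0.212 and 0.256 CPM at 10 weeks, a log2 fold change of -6.05 ± 0.26 (edgeR adjusted p = 2.57e-06). All 10-week libraries lay under 1 CPM, far below all 2-week libraries. Mir675 is the hairpin within the first exon of H19, the imprinted non-coding RNA beside Igf2, so in total RNA its reads can come from the host transcript, and mature microRNA was not measured. The hairpin lies at chr1:207161752-207161835 on the - strand of GRCr8 in RefSeq. Its mature products are shown to identify the locus, with the seed (bases 2 to 8) in capitals.
rno-miR-675-5p: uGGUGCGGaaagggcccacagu
rno-miR-675-3p: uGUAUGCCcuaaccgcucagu

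Genes for DNA and histone methylation were among those lower at 10 weeks, 11 of 25 against 2 higher, and 7 against 0 in the fit of the 6 control libraries alone. Tet1, which oxidises methylated cytosine, fell from 12.3, 14.2 and 13.2 to 5.99, 7.08 and 6.21 CPM (-1.04 ± 0.12, edgeR adjusted p = 0.00029), and Ehmt1, a histone H3 lysine methyltransferase, from 45.9, 41.5 and 39.6 to 28.96, 30.3 and 28.7 CPM (-0.53 ± 0.07). The circadian clock list held 7 falls and 4 rises among 17 genes (2 rises without the 2-week replicate 2 or the 10-week replicate 3, and 4 falls and 2 rises without the 10-week replicates 1 and 3 together). Per2 fell from 36.7, 48.3 and 39.5 to 11.5, 14.4 and 9.16 CPM (-1.82 ± 0.19, edgeR adjusted p = 0.00017), Per3 from 22.5, 32.4 and 25.5 to 6.31, 8.84 and 6.97 CPM (-1.86 ± 0.20) and Cry1 from 9.701, 10.2 and 9.02 to 4.28, 3.55 and 3.505 CPM (-1.35 ± 0.14). These 3 encode repressors of the clock, and none overlapped between the ages. Per1 and Cry2, which encode further repressors, were not called, at log2 fold changes of -0.08 and -0.20. The hour of islet collection was not given in the sources used here. Among nuclear receptors, Vdr, the vitamin D receptor, rose from 6.75, 7.02 and 9.24 to 27.8, 27.6 and 24.8 CPM (1.80 ± 0.18, edgeR adjusted p = 0.00014).

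The extracellular matrix and its cells were lower at 10 weeks. Of 74 collagen and matrix genes, 48 fell and 3 rose (median log2 fold change -1.05), and of 20 fibroblast and stellate cell markers, 16 fell (median -1.13). Without the 10-week replicates 1 and 3 together, 30 matrix genes fell. Eln, elastin, stood at 613, 1055 and 1001 CPM at 2 weeks and 124, 131 and 114 CPM at 10 weeks, a log2 fold change of -2.86 ± 0.24 (edgeR adjusted p = 8.18e-05). Fbn2, the fibrillin of developing tissue, went from 35.2, 41.6 and 26.6 to 5.799, 5.55 and 4.71 CPM (-2.68 ± 0.15), and Col3a1, type III collagen, from 3066, 5471 and 4687 to 483, 1017 and 1084 CPM (-2.35 ± 0.33). The ages did not overlap. The fibroblast list as a whole held between 4315 and 11020 unscaled counts per 1000000 at 2 weeks and between 590 and 2568 at 10 weeks. Of 20 endothelial markers, 2 rose and 2 fell, a smaller share in either direction than over all symbols, and 5 fell without the 2-week replicate 1. Cldn5, an endothelial tight junction protein, fell from 10.02, 22.4 and 16.4 to 2.47, 5.29 and 4.27 CPM (-2.02 ± 0.33), and Flt1, a VEGF receptor, rose from 40.1, 66.95 and 72.8 to 89.5, 146 and 135 CPM (1.04 ± 0.25).

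The other cell lists differed. Of 13 smooth muscle and pericyte genes 2 rose and 2 fell (15.4% each way), and of 14 Schwann cell and glia genes 1 rose (7.14%) and 2 fell (14.3%). These shares were near or below the 17.3% higher and 15.0% lower over all symbols. Without the 10-week replicate 2, 7 Schwann cell and glia genes fell. Of 9 red blood cell genes 8 were lower, among them the alpha globin gene Hba1, from 295, 473 and 343 to 165, 100.3 and 166 CPM (-1.36 ± 0.32), and Alas2, the haem synthesis enzyme of red cells, from 4.66, 6.14 and 5.16 to 1.36, 0.893 and 1.83 CPM (-1.99 ± 0.27). Hba1 and Hba2 are near-identical copies whose reads may be split. Of 13 fat cell genes 5 fell. Adipoq, adiponectin, stood at 1.66, 7.57 and 11.7 CPM at 2 weeks and 0.412, 0.4702 and 0.8397 CPM at 10 weeks (-3.64 ± 0.60), with replicate 1 the lowest of the 2-week libraries and a log2 fold change of -3.06 without replicate 3. Alpha cell genes followed Gcg: 6 of 12 fell and 1 rose. Irx2, an alpha cell factor, fell from 7.097, 8.78 and 14.6 to 4.15, 4.47 and 3.43 CPM (-1.33 ± 0.34), a call that was lost without the 10-week replicates 1 and 3 together. With the 10-week replicates 1 and 3 left out together, 1 alpha cell gene was called lower.

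Immune genes were higher at 10 weeks. Of 31 interferon-stimulated genes, 23 rose (74.2%, median log2 fold change 1.04), and 15 did so in the fit of the 6 control libraries alone. Ifit3, an antiviral effector, stood at 0.801, 0.8604 and 1.099 CPM at 2 weeks and 3.26, 8.35 and 9.16 CPM at 10 weeks, a log2 fold change of 2.90 ± 0.51 (edgeR adjusted p = 0.0020), and Mx2, a dynamin-like GTPase, at 3.21, 4.38 and 2.197 CPM at 2 weeks and 8.43, 15.6 and 17.3 CPM at 10 weeks (2.08 ± 0.34). The ages did not overlap, and the 10-week replicate 1 was the lowest of its age for both. Of 19 antigen presentation genes 13 rose, a count that was 6 without the 2-week replicate 1 or 3 and 7 without the 10-week replicate 2. B2m, the light chain of MHC class I, stood at 73.3, 122 and 112 CPM at 2 weeks and 241, 462 and 386 CPM at 10 weeks (1.82 ± 0.25, edgeR adjusted p = 0.00059), and the class I gene RT1-A2 went from 77.8, 121 and 91.4 to 233, 622 and 377 CPM (2.09 ± 0.38). Class I genes have near-identical copies, and their counts may be split among them.

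Markers of immune cells moved with these genes. Of 20 macrophage and myeloid genes, 12 rose, and 5 did so without the 2-week replicate 1 or 3 and 7 without the 10-week replicate 3. C1qa, a complement subunit made by macrophages, went from 4.64, 9.54 and 7.67 to 11.03, 24.7 and 28.8 CPM (1.55 ± 0.36). The summed macrophage list overlapped between the ages, from 46.7 to 146 unscaled counts per 1000000 at 2 weeks and from 50.5 to 294 at 10 weeks. Of 17 T and NK cell genes, 6 rose, and 3 did so without the 2-week replicate 3 or the 10-week replicate 2. The summed list was 8.60 to 23.6 unscaled counts per 1000000 at 2 weeks and 8.30 to 75.7 at 10 weeks. The part of these cells in the interferon and class I results was not tested. Without the 10-week replicate 2, the library with the lymphoid transcripts, 20 interferon-stimulated genes rose, and over all libraries left out in turn the count was between 17 and 25. C3, complement component 3, an acute phase gene, rose from 1.92, 7.63 and 5.06 to 29.6, 46.6 and 86.7 CPM (3.46 ± 0.49, edgeR adjusted p = 0.00066).

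The promoters of the interferon list were matched for 23 of 31 genes, and 13 of them (56.5%) held GAAA, then NN, then GAAA, the core of the interferon-stimulated response element, on either strand, against 3.77% of all promoters and 2.92% of those of tested symbols. This motif was chosen after the changes were seen. The promoter of Ifit3 is shown as an example, with the match in capitals, read on the other strand and beginning 44 bases before the start.
Ifit3, chr1:241527076-241527375, + strand: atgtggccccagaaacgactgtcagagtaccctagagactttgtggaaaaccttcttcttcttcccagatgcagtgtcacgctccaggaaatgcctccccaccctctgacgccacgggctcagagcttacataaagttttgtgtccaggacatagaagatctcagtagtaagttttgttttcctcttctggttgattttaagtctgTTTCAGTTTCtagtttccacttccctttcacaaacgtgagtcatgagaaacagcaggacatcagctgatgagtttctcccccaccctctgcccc

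The exocrine transcripts that came with the islets changed in makeup. Relative to all counts, 5 of 35 acinar genes were called higher (14.3%, below the 17.3% over all symbols) and 0 lower, and the libraries of each age differed widely. The count of rises was 3 without the 2-week replicate 2 or the 10-week replicate 1 and 10 without the 10-week replicate 2. Within the acinar counts of each library, however, 9 of 36 genes took a higher share at 10 weeks and 21 a lower share without overlap between the ages, 83.3% of the list together. These shares sum to 100 in a library, so a large rise of 1 gene lowers the others. They were taken for this list only, so no value over all symbols stands beside the 83.3%. In the IUGR libraries 8 of the 9 and 15 of the 21 did the same, and Bhlha15 went the opposite way. Amy2a3, pancreatic amylase, which digests starch, took 18.2, 15.7 and 17.7% of the acinar counts at 2 weeks and 42.0, 38.8 and 43.4% at 10 weeks. Pnlip, the classical pancreatic lipase, took 1.33, 1.43 and 1.67% and then 8.10, 6.66 and 5.78%. The lipase-related Pnliprp1 took 15.8, 16.9 and 15.1% and then 3.34, 2.77 and 3.17%. Cel, the bile salt-dependent lipase that digests milk fat, took 11.8 ± 0.6% (SD, n = 3) at 2 weeks and 5.53 ± 0.22% at 10 weeks, and Ctrb1, chymotrypsinogen, 9.32 ± 0.13% and 3.53 ± 1.08%. Amylase has near-identical gene copies, and how reads were divided among them was not given in the sources used here.

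**Figure D4:**
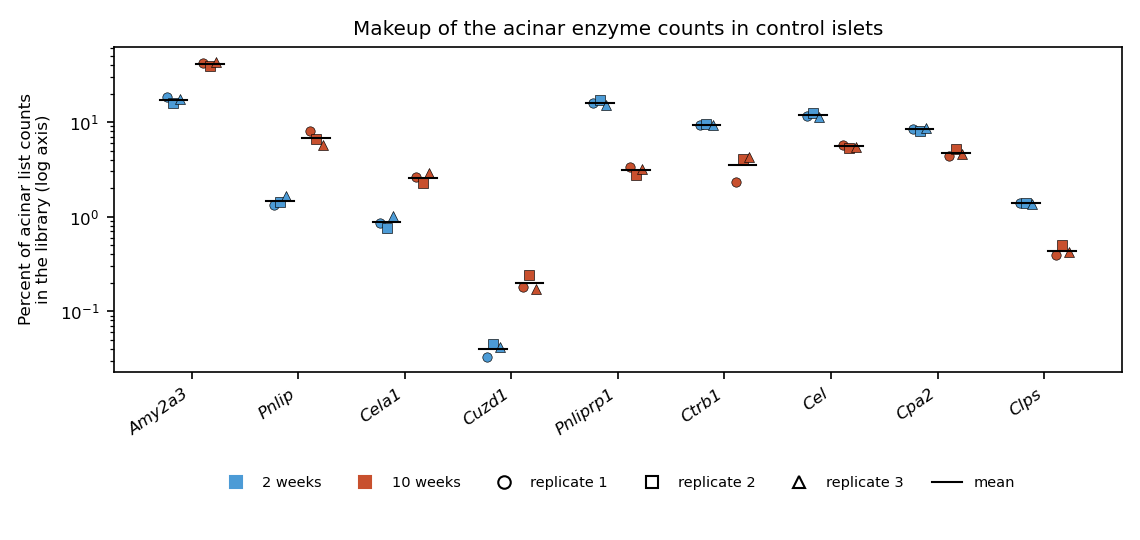
Share of the acinar list's counts (percent, log axis) taken by 9 enzyme genes in the 3 control libraries of 2 weeks (blue) and the 3 of 10 weeks (red), with a marker shape per replicate number and a line at the mean. The first 4 genes lie higher and the last 5 lower at 10 weeks with no overlap.

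The acinar stress lectins rose unevenly. Reg3a stood at 7.93, 1.603 and 3.59 CPM at 2 weeks and 48.8, 219.9 and 1096 CPM at 10 weeks and Reg3b at 20.98, 4.34 and 5.98 CPM at 2 weeks and 47.9, 182 and 534 CPM at 10 weeks, with log2 fold changes of 6.72 ± 1.43 and 4.62 ± 1.20. The 10-week libraries did not overlap the 2-week ones but differed among themselves by more than 10 times, with replicate 3 the highest. Without that library the log2 fold changes were 4.96 and 3.47, and without the 2-week replicate 1 they were 7.45 and 5.62. The Reg3b call was lost without the 2-week replicate 2. Cuzd1, a zymogen granule protein, rose from 180.2, 89.01 and 78.4 to 1585, 314 and 1812 CPM (3.42 ± 0.65) and was lower in the 10-week replicate 2, which had the lowest acinar share. Its call was lost without the 10-week replicates 1 and 3 together. Pigr, the epithelial receptor for polymeric immunoglobulins, rose from 6.01, 2.76 and 3.84 to 105, 25.4 and 109 CPM (4.26 ± 0.53), and Serpina3n, an acute phase protease inhibitor, from 0.572, 0.411 and 0.942 to 17.3, 2.73 and 25.2 CPM (4.53 ± 0.73). In both the 10-week replicate 2 was again the lowest of its age. With acinar level as covariate, the calls of Pigr and Serpina3n were kept. The part of the acinar share in these levels was not tested further.

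Of 86 cytosolic ribosomal proteins, 14 fell (16.3%), close to the 15.0% over all symbols. That count was 1 without the 2-week replicate 1 or the 10-week replicate 1, 2 without the 10-week replicate 2 and 49 with acinar level as covariate.

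The same interval was measured in the IUGR islets, in libraries that share no sample with the controls. There 4710 symbols (27.1%) were higher and 5054 (29.1%) lower at 10 weeks. Of the control symbols that rose, 79.3% rose in IUGR islets too, and these were 50.4% of the IUGR rises. Of those that fell, 75.2% fell too, which were 38.8% of the IUGR falls. Opposite calls were made for 114 symbols. The difference between the intervals was called by an interaction term for 2476 symbols (14.3%), of which 955 were also called in the controls. The acinar list held 21.7 to 42.2% and 13.9 to 46.9% of counts in the controls and 4.38 to 9.38% and 0.624 to 2.32% in the IUGR libraries at 2 and 10 weeks, and its part in these differences was not tested. The number of differences was 3942 with acinar level as covariate, 4117 and 1610 without the control 10-week replicates 1 and 3, and 1525 and 1473 without the IUGR 2-week replicates 1 and 2.

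The difference was called for 1 of 14 adult beta cell genes and 1 of 77 division genes by edgeR, against 14.3% of all symbols. By edgeR at an unadjusted p of 0.05 these were 6 and 5 genes, and by DESeq2 2 of each. Over all 17360 symbols the counts were 5294 by edgeR at that unadjusted p and 3567 by DESeq2. The median log2 fold change of the adult beta cell genes was 1.38 in the controls and 2.06 in IUGR islets. Of 16 granule genes none was called (3 at an unadjusted p of 0.05 and 2 by DESeq2). It was called for 42 of 74 matrix genes higher in the controls (a smaller fall), 18 of 20 fibroblast and 18 of 20 endothelial markers, and 12 of 31 interferon-stimulated genes. Col1a1, type I collagen, fell from 327, 609.6 and 491 to 50.9, 141 and 70.9 CPM in the controls and from 955, 963 and 669 to 10.5, 8.69 and 13.7 CPM in IUGR islets (difference in log2 fold change 3.85 ± 0.52, edgeR adjusted p = 0.0024). Ifit3 stood at 1.59, 2.06 and 0.985 and 0.835, 1.89 and 3.16 CPM in IUGR islets, against the control rise given above (difference 2.55 ± 0.69, adjusted p = 0.032). Of 22 disallowed genes, 16 differed. Ldha, lactate dehydrogenase A, was not called in the controls, at 60.3, 61.1 and 61.7 and 36.6, 72.2 and 54.7 CPM, and fell from 96.6, 97.2 and 85.2 to 15.8, 24.9 and 18.1 CPM in IUGR islets (difference 2.08 ± 0.31, adjusted p = 0.0034). Rgs11, a regulator of G protein signalling, was among the few genes with opposite calls, falling from 45.05, 31.6 and 36.9 to 24.8, 21.5 and 25.2 CPM in the controls and rising from 16.1, 15.04 and 14.6 to 33.7, 29.5 and 36.6 CPM in IUGR islets (difference -1.79 ± 0.19, adjusted p = 0.0017). Prlr, Slc2a2 and Mafa rose at both, and their differences were not called (adjusted p = 0.12, 0.14 and 0.76).

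**Figure D5:**
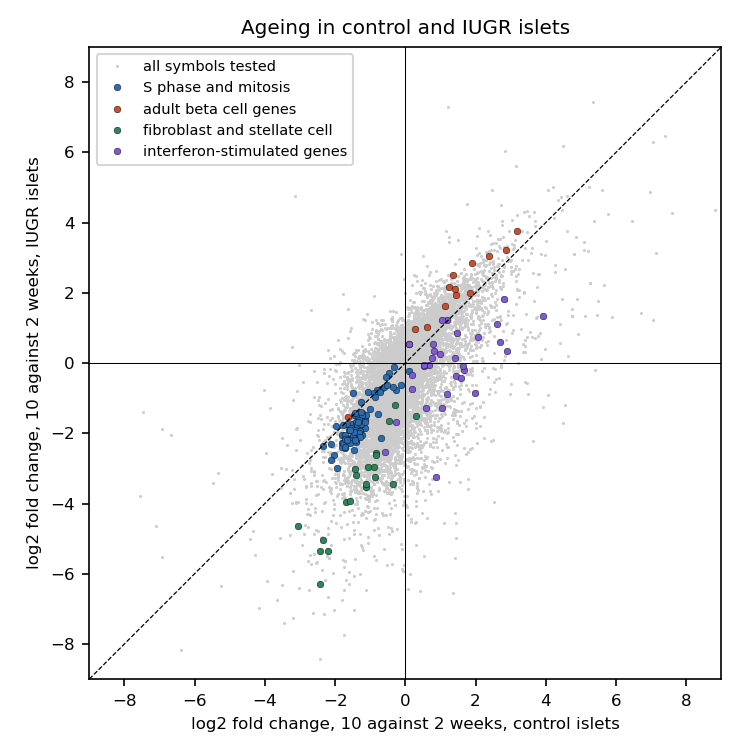
log2 fold change from 2 to 10 weeks in control islets (horizontal) against IUGR islets (vertical) for the 17360 symbols tested, with 4 lists in colour, a dashed line of equal change and 7 symbols outside the axes. Adult beta cell and division genes lie near the line, fibroblast genes below it, and interferon-stimulated genes to the right of it.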

How the data were processed

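Strand-specific total RNA libraries of islets from 12 samples in 4 groups (control and IUGR, 2 and 10 weeks, 3 libraries each) were analysed. The authors deposited 1 table of raw counts for 30309 Ensembl rat transcripts. TopHat2 2.0.9, bedtools and 2 builds, rn5 and mm9, are listed with no role, per the submitters' processing notes. The counting rule, its strand setting and the annotation release were not given in the sources used here, so overlapping genes, antisense genes and near-identical copies may share reads.

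Counts were tested with edgeR 4.0.16 (R 4.3.3): filterByExpr kept 20733 transcripts, TMM factors scaled the libraries, and 1 robust quasi-likelihood fit of all 12 libraries, which share 1 estimate of the spread, gave the contrasts of age in control islets, in IUGR islets and their difference. Benjamini-Hochberg adjustment covered all 20733 transcripts, the threshold was 0.05, and calls were counted over 1 transcript per symbol (17360 symbols). Standard errors were derived from the fold change and the F statistic. On simulated counts for this comparison with 20733 transcripts, 71% of transcripts changed 2-fold and 94% of those changed 4-fold were recovered, with 8 false calls among 173. There, 100 transcripts per fold were changed in 1 group, and a transcript had the same spread in every library. These rates do not carry over to the data, where 32.3% of symbols were called and the spread of replicates was uneven.

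The comparison, 46 lists (1202 of 1253 entries found) and the tests were chosen with earlier results of these data known. Genes were named by rule: the 12 widest rises and falls without overlap at a mean log2 CPM of at least 1 in the control libraries, the same with a matching call in IUGR islets, the 6 largest differences each way, the 4 smallest p in each list, and a fixed set of hallmark genes. Names were then selected from these for the text with their values known, and some genes are not reported here. Promoter and microRNA sequences are from RefSeq, build GRCr8, and were matched by symbol, since no genome of build rn5 was used here. The same comparisons were repeated with a replicate block, DESeq2 1.42.0, no filter on low counts, RLE factors, the libraries of 1 comparison alone, an acinar covariate, removal of the 20 most abundant transcripts and acinar genes, 1 transcript per symbol in the fit, an adjusted p of 0.1, each library left out, and the control 10-week replicates 1 and 3 left out together. Replicates differed by more than sampling noise, and p-values cover the spread between these libraries only. The median chi-square between 2 replicates, without TMM scaling, was 1.93 to 3.56 in IUGR pairs. In control pairs it was 134 and 160 with the 10-week replicate 2, 35.0 and 33.8 with the 2-week replicate 1, and otherwise 3.20 and 5.25. Unequal acinar shares enter these values.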

Additional observations from a re-analysis of the deposited data

Results flagged for a closer look

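Among the genes named, 27 had a change with age that differed between control and IUGR islets by the interaction term of the edgeR fit (adjusted p under 0.05 over all transcripts). In 26 of them the control change was the higher one. The acinar list held 13.9 to 46.9% of counts in the control libraries and 0.624 to 9.38% in the IUGR libraries, and its part in these differences was not tested.

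The largest difference was that of Serpina3n, 5.74 on the log2 scale (control 4.53, IUGR -1.20), followed by C3 with 4.04 and Cuzd1 with 3.96. In these 3 genes the fitted changes had opposite signs, and the IUGR changes were not called. Some imprinted and fetal genes fell less far in the controls: Dlk1 by a difference of 3.94, Mir675 by 3.30, Gpc3 by 1.60, Grb10 by 1.56 and Cdkn1c by 1.53. Igf2, Igf2bp3 and Nnat, which also fell in the controls, were not among the flagged genes. On the fetal growth list the difference was called for 6 of 23 genes, against 14.3% of all symbols. Matrix and stromal genes also fell less far in the controls, with differences of 3.85 for Col1a1, 2.68 for Col3a1, 1.76 for Eln and 0.73 for Fbn2. Differences for markers of other cells were 3.11 for Adipoq, 2.03 for Hba1 and 2.01 for Cldn5, and Alox15 differed by 2.81, all with a smaller fall in the controls.

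Ifit3 and B2m rose in the controls, with differences of 2.55 and 1.27, and were not called in IUGR islets. Chac1 rose in both, with a difference of 2.42. Rest and Slc16a1 fell less far in the controls, with differences of 1.12 and 1.76. Ldha differed by 2.08, with a log2 fold change of -0.16 in the controls, which was not called, and -2.25 in IUGR islets. Gpx7, Gpx8 and Ccl11 fell less far in the controls, by 0.88, 1.38 and 2.77. The clock gene Cry1 fell less far in the controls, by 0.72. Rgs11 was the exception in direction, with a difference of -1.79 (control -0.67, IUGR 1.13).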

How the results depend on the processing

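In control islets, 2995 symbols rose and 2606 fell. These counts were 1551 and 1311 when only the 6 control libraries were fitted, and 1795 and 1237 without the 10-week replicates 1 and 3 together, which leaves 1 library at 10 weeks that is assumed to vary like the other groups. Leaving out 1 library gave 2026 to 3040 rises and 1770 to 2685 falls, lowest without the control 2-week replicate 2. The share of rises among the calls was between 50.9 and 59.2% under all alternatives, and the median log2 fold change over all symbols stayed within 0.022 of 0. IUGR calls were 9764, and 8362 to 10536 with 1 library left out. Differences in ageing were 2476, against 3942 with the acinar level as covariate, 3900 at an adjusted p of 0.1, and 1473 to 4117 with 1 library left out. The control change was the higher one in 73.6% of them, in 62.3% with that covariate and in 56.0% without the control 10-week replicate 1. Of the 98 named genes called in the controls, none reversed under the alternatives run, and 2122 of 2150 values kept their call. These genes were selected with their values known, many for a wide change or a small p in these libraries. Their stability therefore does not describe the calls over all symbols. Ldha, not called at a log2 fold change of -0.16, was 0.24 without the 10-week replicates 1 and 3, and -0.42 to 0.039 with 1 library left out, above 0 without the 10-week replicate 1; it was called under none of these. Of 2022 list counts, 248 moved by more than 1.5 times, and the ribosomal, respiratory chain, ion channel, antigen presentation and immune cell lists were among them. Cdkn2a had at most 4 counts in a library and was not tested. The replicate numbers were not treated as pairs in the main fit. Same-numbered control libraries of the 2 ages had deviations correlated by 0.453, 0.510 and -0.058, and not every library correlated best with its own number. These values cannot show whether the numbers pair the samples, since the acinar share also differed among the libraries of an age. With the replicate block, 3106 symbols rose and 2656 fell in the controls, 9880 were called in IUGR islets and 2683 in the difference.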

Other observations

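Of 30 antioxidant and metallothionein genes, 9 rose (30.0%) and 4 fell (13.3%, near the 15.0% over all symbols) in the controls. The rises were 5 without the 2-week replicate 2, and the falls 7 with acinar level as covariate. Nqo1, a quinone reductase, went from 1.402, 2.52 and 3.31 CPM at 2 weeks to 11.03, 8.37 and 7.45 CPM at 10 weeks (log2 fold change 1.88 ± 0.29, edgeR adjusted p = 0.00095), and Srxn1, sulfiredoxin, from 0.343, 0.508 and 0.608 to 2.98, 1.53 and 2.19 CPM (2.17 ± 0.30). Both are known targets of the oxidant-responsive factor NRF2, and neither overlapped between the ages. Gpx7 and Gpx8, peroxidases of the endoplasmic reticulum, went from 8.84, 12.4 and 12.4 to 4.78, 5.24 and 5.59 CPM and from 8.73, 12.1 and 10.7 to 3.71, 5.196 and 5.37 CPM (-1.11 ± 0.16 and -1.15 ± 0.16).

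Il1r1, the receptor for interleukin-1, rose from 29.9, 38.9 and 48.999 to 147, 125 and 123 CPM (1.74 ± 0.19, edgeR adjusted p = 0.00019) and from 44.9, 58.4 and 40.8 to 162, 199.8 and 185 CPM in IUGR islets. All 10-week libraries were above all 2-week libraries. The eosinophil chemokine gene Ccl11 fell from 9.701, 8.62 and 9.73 to 0.634, 1.15 and 2.59 CPM (-2.70 ± 0.42). Chac1, which degrades glutathione and is induced by the ER stress factor ATF4, rose from 1.52, 0.841 and 1.47 to 19.2, 7.92 and 23.95 CPM (3.74 ± 0.43), and Trib3, another gene induced by ATF4, from 1.06, 1.39 and 1.27 to 6.34, 3.22 and 8.29 CPM (2.25 ± 0.30). For both, the 10-week replicate 2, which had the lowest acinar share, was the lowest of its age. Both calls were kept with acinar level as covariate, and the part of acinar cells was not tested further. Gcgr, the glucagon receptor, rose from 3.69, 7.41 and 7.81 to 27.3, 17.3 and 18.4 CPM (1.73 ± 0.26) while Gcg fell.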
